A study of Mus musculus with 4 samples.

Results

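miR-146a and miR-146b are a pair of microRNAs (miRNAs) made from separate genes that carry the same seed, the bases by which a miRNA recognises its target mRNAs. They were followed in cultured mouse synovial fibroblasts, the mesenchymal cells that line the joint. The members were the rows named miR-146a or miR-146b with any arm mark, which gave 3 of the 590 miRNA names listed in any library: mmu-miR-146a, mmu-miR-146b and mmu-miR-146b*, the strand opposite miR-146b in its hairpin (mmu marks mouse and is left out below). All 3 were listed in every library.

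A miRNA is cut from a hairpin precursor, loaded into an Argonaute protein and guided to sites in mRNAs that pair with its seed, which lowers their translation and stability. miR-146a is a textbook product of NF-kB signalling downstream of TNF, interleukin-1 and Toll-like receptors, and it represses the signalling proteins Irak1, a kinase, and Traf6, a ubiquitin ligase, so it is described as a brake on the pathway that induces it. In rheumatoid synovium miR-146a is among the miRNAs known for high levels.

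The mature sequences show what the pair shares and where it differs, and are given from RefSeq (GRCm38.p6), 5′ to 3′, with the seed (bases 2 to 8) in capitals.
miR-146a: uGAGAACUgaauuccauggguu
miR-146b: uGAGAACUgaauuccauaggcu
miR-146b*: gCCCUAGGgacucaguucuggu
Counted from 1 at the 5′ end of miR-146a, miR-146b carries G18A and U21C, and the other 20 of 22 bases are identical. The same pair is given again with the differing bases in capitals.
miR-146a: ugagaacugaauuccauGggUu
miR-146b: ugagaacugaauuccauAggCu
Both differences lie outside the seed. Of the names with a matched sequence, 2 carried this seed, miR-146a and miR-146b, while miR-146b* has a seed of its own. The older names used in the files correspond to miR-146a-5p, miR-146b-5p and miR-146b-3p.

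The hairpins are shown with both mature arms in capitals, because miR-146b and miR-146b* come from one precursor whereas miR-146a comes from another.
Mir146: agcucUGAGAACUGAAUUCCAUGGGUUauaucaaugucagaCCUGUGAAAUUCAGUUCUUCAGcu
Mir146b: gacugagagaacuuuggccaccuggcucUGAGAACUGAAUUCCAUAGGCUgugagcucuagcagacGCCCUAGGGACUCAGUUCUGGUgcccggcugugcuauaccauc
In GRCm38, Mir146 is at chr11:43374397-43374461 on the minus strand and overlaps no other gene of GENCODE M21. Mir146b is at chr19:46342762-46342870 on the plus strand, in an intron of Mfsd13a, 1641 bases from the start of that gene and on its strand. The miR-146a-3p arm of Mir146 was not analysed here.

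Sites that pair with the shared seed are the same for both miRNAs. The 7-base match AGTTCTC, searched on the sense strand of the longest 3′ UTR of each gene in GENCODE M21, was found 2 times in that of Irak1 and 4 times in that of Traf6. It was present in 11.2% of the 21020 genes with an annotated 3′ UTR. The first match of each is printed with the seed match in capitals, at chrX:74015393-74015414 (minus strand) and chr2:101697945-101697966 (plus strand).
Irak1: gactcagaggtcaaAGTTCTCa
Traf6: ccgctctggtgttgAGTTCTCa
These matches describe the sequences only. The libraries hold small RNA, so the mRNAs of Irak1 and Traf6 were not measured here.

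Cultures of TghuTNF mice, which carry a human TNF transgene and are known to develop arthritis, were compared with cultures of their wild-type (WT) littermates, 2 of each. The mice of both genotypes were of strain CBA/J * C57BL/6/J and 8 weeks old, and their hind joint cells were used at passage 4. Per the labels, the cultures were mostly positive for CD90.2, VCAM-1 and ICAM-1 and nearly free of Mac1-positive cells. The series design calls them biological replicates but names no animals. Each p-value rests on how far the 2 cultures of a genotype differ, with that spread estimated by sharing information across all features tested. The sources used here do not give the promoter of the transgene or any pooling of animals, and the small RNA libraries hold no measure of the transgene.

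Total matches ranged from 16680860 to 27362819 per library, and CPM below means matches per 1000000 after TMM scaling between libraries. Where a miRNA had no match, up to 3 counts (0.110 to 0.180 per 1000000 matches) are compatible with that 0. Such limits and the intervals below cover counting error only, since reads carry no molecular identifiers. TghuTNF replicate 2 stood apart in its mismatches: 11.7% of its matches had 2 mismatches, against 8.21% to 8.73% in the other libraries. The 10 miRNAs chosen as mesenchymal markers had summed levels of 290017 to 302918 CPM in WT and 295182 to 320581 CPM in TghuTNF. Most of this was miR-21, which did not pass the test (log2 fold change 0.12 ± 0.14, SE). Of the 9 tested, 1 rose (miR-22, log2 1.02 ± 0.19) and 1 fell (miR-214, below), and miR-199b was not listed. Over all 442 miRNAs tested, 4.75% were higher and 8.60% lower. These calls rest on total matches. miR-196a did not pass on them (0.23 ± 0.17, SE). On perfect matches, in the test of seed pools below, it rose (1.07 ± 0.27, edgeR adjusted p = 0.029).

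miR-146a was higher and miR-146b lower in TghuTNF fibroblasts, and miR-146b* fell with its partner. All 3 members passed edgeR's quasi-likelihood test at an adjusted p under 0.05, as did 13.3% of the 442 miRNAs tested on total matches (4.75% higher and 8.60% lower). In all 3 the TghuTNF libraries lay on one side of both WT libraries. The same held for miRNAs that did not pass, such as miR-125b-5p, so with 2 libraries against 2 this alone does not set a miRNA apart.

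miR-146a stood at 1449.5 and 1510.0 CPM in WT replicates 1 and 2, and at 6551 and 11862 CPM in TghuTNF replicates 1 and 2. The WT cultures were nearly equal, whereas the TghuTNF cultures were 1.81-fold apart. The rise was 6.22-fold, a log2 fold change of 2.64 ± 0.25 (SE; edgeR adjusted p = 7.8e-05). It was the largest rise among the 135 tested miRNAs with a mean of at least 100 CPM. In the order of abundance miR-146a moved from rank 51 in both WT libraries to 24 and 18 in TghuTNF. Its neighbours in WT were miR-28* or miR-320 above and miR-99a below. In TghuTNF it stood between let-7e and miR-100 in replicate 1 and between miR-148a and miR-152 in replicate 2.

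miR-146b stood at 24376 and 13644 CPM in the WT libraries and at 5752 and 5217 CPM in the TghuTNF libraries. Here the WT cultures were 1.79-fold apart and the TghuTNF cultures close to each other. The fall was 3.47-fold, a log2 fold change of -1.79 ± 0.24 (SE; edgeR adjusted p = 0.00081). It was the largest fall among the same 135 abundant miRNAs. In WT miR-146b ranked 8 and 14, next to miR-125b-5p and miR-34c in replicate 1 and to miR-99b and miR-24 in replicate 2. In TghuTNF it ranked 27 and 28, between miR-103 and miR-107 and between miR-199a-3p and let-7e.

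miR-146b*, the strand usually discarded when miR-146b is loaded, was scarce, with 111 and 128 matches in WT and 42 and 29 in TghuTNF. Its levels were 6.76 and 4.70 CPM in WT and 1.52 and 1.29 CPM in TghuTNF, so that every TghuTNF value lay below every WT value. The fall was 4.03-fold (log2 fold change -2.01 ± 0.34, SE; edgeR adjusted p = 0.0026). It ranked 270 and 302 in WT and 368 and 379 in TghuTNF.

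**Figure D1:**
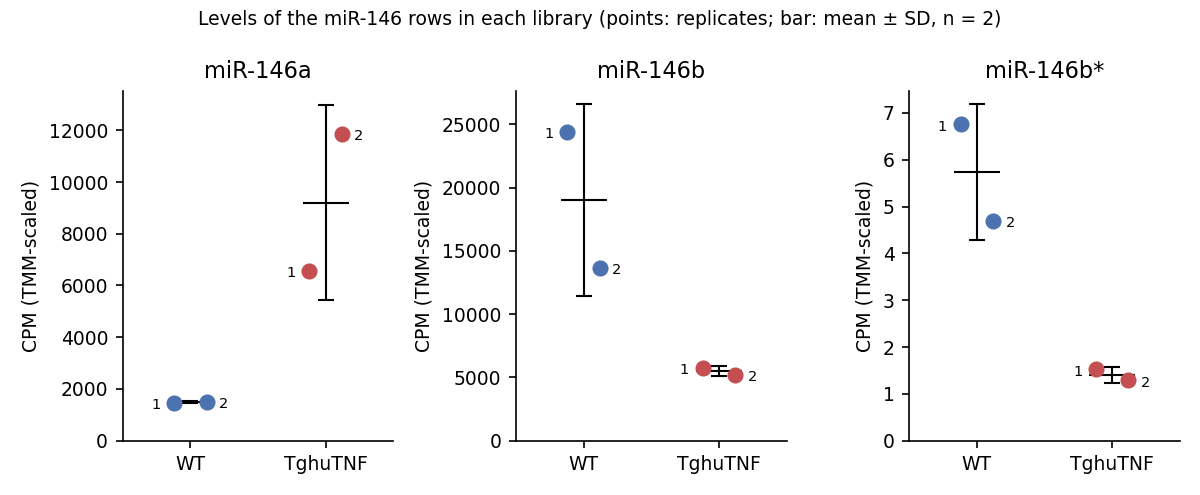
Level of each miR-146 row in CPM (linear axes from 0), with points for replicates 1 and 2 of each genotype and bars for the mean ± SD (n = 2). miR-146a is low in both WT libraries (1449.5 and 1510.0) and spread in TghuTNF (6551 and 11862), while miR-146b and miR-146b* are lower in both TghuTNF libraries than in either WT library.

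A read over the full length of one member cannot match the other perfectly, so the perfect matches keep the loci apart for such reads. How the mapper treated shorter reads is not stated in its headers. They were tested separately over 380 miRNAs, of which 13.2% passed, and all 3 members passed again. On this scale miR-146a stood at 1676 and 1726 per 1000000 in WT and at 7418 and 13875 in TghuTNF, a 6.26-fold rise (log2 2.65 ± 0.28, SE; edgeR adjusted p = 0.00062). miR-146b stood at 32923 and 18956 in WT and at 7764 and 6833 in TghuTNF, a 3.55-fold fall (log2 -1.83 ± 0.24, SE; edgeR adjusted p = 0.0020). miR-146b* stood at 8.16 and 6.21 in WT and at 1.64 and 1.45 in TghuTNF, a 4.59-fold fall (log2 -2.20 ± 0.34, SE; edgeR adjusted p = 0.0031). The fold changes of miR-146a and miR-146b were thus within 1 SE of those from total matches.

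Reads of one member could be counted for the other with mismatches, since the mapper allowed 2. A full-length read of one has 2 mismatches to the other, and a read that covers base 18 but ends before base 21 has 1. A read that ends before base 18 has none, so perfect matches cannot place it. Reads of miR-146a with 1 or 2 mismatches numbered 4505 and 8860 in WT and 36372 and 57006 in TghuTNF. Set against the perfect matches of miR-146b, these were 1.19% and 2.50% in WT and 24.1% and 55.1% in TghuTNF. Reads of miR-146b with 1 or 2 mismatches numbered 21231 and 17362 in WT and 7567 and 14002 in TghuTNF. Set against the perfect matches of miR-146a, these were 109.9% and 53.8% in WT and 5.24% and 6.66% in TghuTNF. How many of these reads came from the other member was not tested.

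The balance between the loci shifted toward miR-146a. In WT, miR-146b had 19.6 and 11.0 perfect matches for each one of miR-146a (replicates 1 and 2). In TghuTNF it had 1.05 and 0.492. As a share of the pool of perfect matches with this seed, miR-146a made up 4.84% and 8.35% in WT, with exact 95% binomial intervals of 4.78% to 4.91% and of 8.26% to 8.43%. It made up 48.9% (48.7% to 49.0%) and 67.0% (66.8% to 67.2%) in TghuTNF. miR-146b was thus far above miR-146a in both WT cultures, by more than either differed between them. In TghuTNF the order depended on the library: the members were nearly level in replicate 1 and miR-146a led in replicate 2.

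The summed pool changed less than either member. Perfect matches of miRNAs with a matched sequence were added up by shared seed, and each name with no matched sequence was kept as a pool of its own. Of the 344 pools tested in this way, many of them single names, 11.0% passed (4.36% higher and 6.69% lower). The miR-146 pool stood at 34853 and 19852 per 1000000 in WT and at 15546 and 20916 in TghuTNF. WT replicate 1 was the highest, and TghuTNF replicate 2 lay above WT replicate 2, so the genotypes overlapped. Its log2 fold change was -0.59 ± 0.25 (SE), and it did not pass (edgeR adjusted p = 0.17). In means, scaled as in the test of pools, miR-146a gained 9133 per 1000000 in TghuTNF and miR-146b fell by 18254, and the pool mean fell by 9121. The pool passed as lower without WT replicate 2 (log2 -0.94, edgeR adjusted p = 0.0018), with upper quartile factors (-0.77, 0.020; they moved the median of all pools by -0.17) and when only pools with a mean of at least 100 CPM were kept (-0.58, 0.026). Without WT replicate 1 its log2 fold change was -0.13 (edgeR adjusted p = 0.84).

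**Figure D2:**
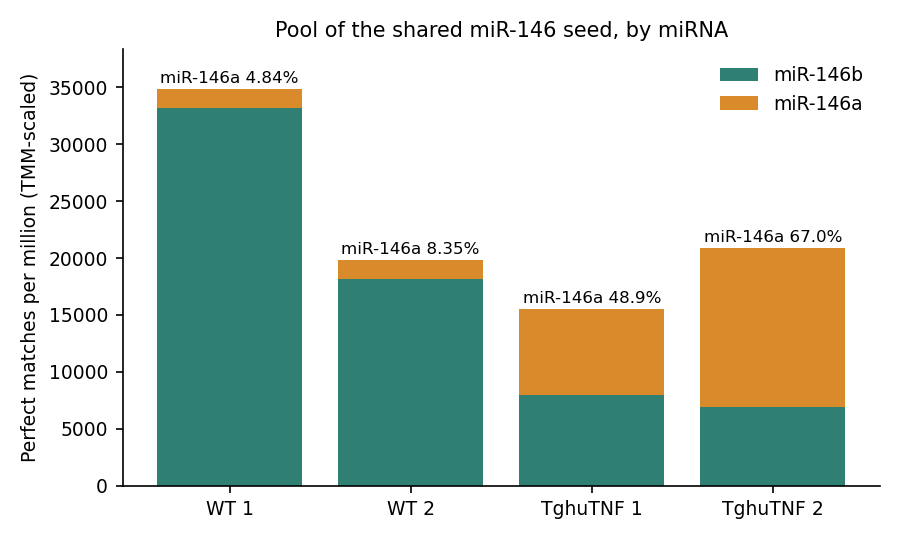
Stacked bars of TMM-scaled perfect matches per 1000000 (linear axis from 0) for miR-146b (green) and miR-146a (orange) in each of the 4 libraries, with the share of miR-146a above each bar. The share rises from 4.84% and 8.35% in WT to 48.9% and 67.0% in TghuTNF, while the bar heights of the genotypes overlap (19852 in WT replicate 2 against 20916 in TghuTNF replicate 2).

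A ratio within a library needs no scaling between libraries. The log2 ratio of miR-146a to miR-146b was -4.30 and -3.46 in WT and -0.066 and 1.02 in TghuTNF, so that both TghuTNF values lay above both WT values. The change was 4.35 ± 0.57 (SE), a 20.5-fold shift. It was compared with limma over 23 seed families, each taken as the ratio of its 2 most abundant miRNAs with a matched sequence. Names with no matched sequence were left out, so abundant members of a family can be missing from its pair. Of the 23 families 1 (4.35%) passed, 0 of them higher. The miR-146 ratio did not pass (limma adjusted p = 0.051), and the exact two-sided permutation test over the 4 libraries gave p = 0.333, the smallest it can give with 2 against 2. It passed on total matches (4.31, limma adjusted p = 0.033) and without TghuTNF replicate 1 (4.90, 0.034). Among the 23 families this change was the largest in size. It was followed by miR-329 to miR-362-3p (3.62 ± 0.85) and miR-192 to miR-215 (-2.04 ± 0.12), the one family that passed (limma adjusted p = 0.011). The miR-146 pair was also the only one of the 23 in which both members passed edgeR's test on perfect matches in opposite directions.

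**Figure D3:**
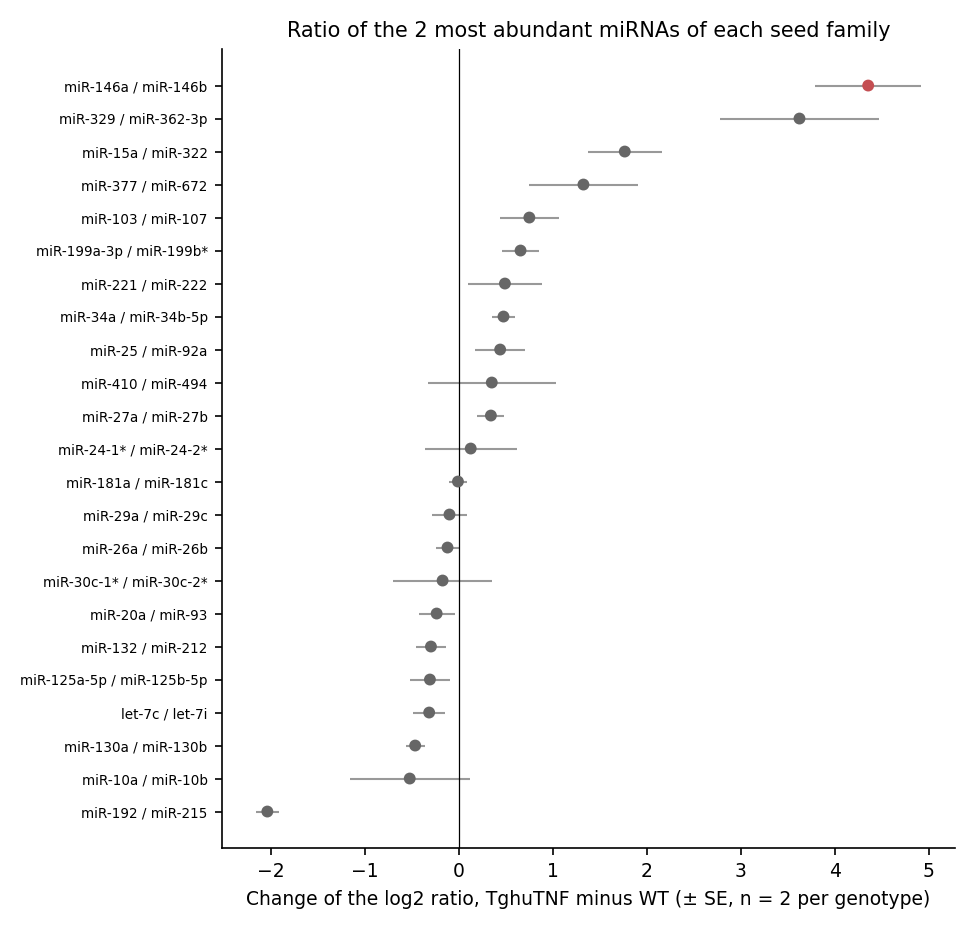
Change of the log2 ratio of perfect matches (TghuTNF minus WT) in 23 seed families, with bars for the SE from limma (n = 2 per genotype). Each ratio is between the 2 most abundant miRNAs with a matched sequence, and the first name is the numerator. miR-146a to miR-146b (red) lies at 4.35, the farthest from 0, and most other families lie within 1 of 0.

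Both strands of the Mir146b hairpin fell by similar amounts. There was 1 match of miR-146b* for every 3608 and 2902 of miR-146b in WT and for every 3781 and 4052 in TghuTNF. The star strand was between 0.0247% and 0.0344% of both strands per library, and the exact 95% binomial intervals of TghuTNF replicate 2 (0.0165% to 0.0354%) and WT replicate 2 (0.0287% to 0.0410%) overlapped. The log2 ratio of star to guide changed by -0.26 ± 0.26 (SE), which did not pass (limma adjusted p = 0.84). The same test over 106 hairpins called 0 (0%) by limma, and 6 had an unadjusted p under 0.05.

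The share of perfect matches separated the pair in every library. For miR-146a it was 81.1% and 78.4% in WT and 79.9% and 78.7% in TghuTNF. For miR-146b it was 94.7% and 95.3% in WT and 95.2% and 88.1% in TghuTNF. The median over the tested miRNAs was 63.3% to 66.8% per library, so both stood above it. Most of the remainder of miR-146a had 1 mismatch (15.2% to 18.9%), against 4.38% to 6.83% of miR-146b. In TghuTNF replicate 2, the library with the most 2-mismatch reads, that class held 6.13% of miR-146a and 5.09% of miR-146b, against at most 2.82% and 0.360% in the other libraries. For miR-146b*, with few reads, perfect matches were 84.7% and 90.6% in WT and 76.2% and 75.9% in TghuTNF.

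The odds of a perfect match did not pass the test for any member. Their log2 change was -0.046 ± 0.27 for miR-146a, -0.65 ± 0.57 for miR-146b and -1.22 ± 0.38 for miR-146b* (SE; limma adjusted p = 0.97, 0.85 and 0.71). For miR-146b* the log2 odds were 2.43 and 3.22 in WT and 1.63 and 1.58 in TghuTNF, so the genotypes did not overlap, and the unadjusted limma p was 0.033. Over all 442 miRNAs limma called 0 (0%), and 28 had an unadjusted p under 0.05. Without TghuTNF replicate 2 the level of miR-146a was still higher (log2 fold change 2.12) and that of miR-146b still lower (-1.74), and both passed edgeR's test.

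A list of 30 miRNAs known to respond to NF-kB, TNF or Toll-like receptor signalling, chosen with earlier results of these data known, held 26 that were tested. Of these 5 rose, 1 fell and 20 did not pass, against 4.75% higher and 8.60% lower over all 442 miRNAs. The median log2 fold change was 0.29 in the list and 0.0056 over all tested miRNAs. miR-155, which acts in macrophage and lymphocyte activation, stood at 164 and 132 CPM in WT and at 334 and 448 CPM in TghuTNF (log2 1.40 ± 0.22, SE; edgeR adjusted p = 0.0019). Only 24.7% of its matches were perfect, and with perfect matches alone it also rose (log2 1.38). miR-221 and miR-222, neighbours on the X chromosome that target the cell cycle inhibitor p27, rose by 2.02 ± 0.28 and 1.84 ± 0.19 (edgeR adjusted p = 0.00082 and 0.00011). miR-31 rose by 1.40 ± 0.23 (edgeR adjusted p = 0.0021).

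miR-223, a myeloid miRNA, was scarce at 0.609 and 0.294 CPM in WT and 3.26 and 2.40 CPM in TghuTNF, and its call ended without WT replicate 2 (edgeR adjusted p = 0.051) and on reads with 1 or 2 mismatches (0.11). miR-203, best known from skin epithelium, fell from 59.0 and 62.4 CPM to 25.2 and 19.8 CPM (log2 -1.43 ± 0.24, SE; edgeR adjusted p = 0.0025). The most abundant members that did not pass were miR-21, miR-143 (-0.11 ± 0.14), miR-125b-5p (0.31 ± 0.15) and miR-99b (0.12 ± 0.16).

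**Figure D4:**
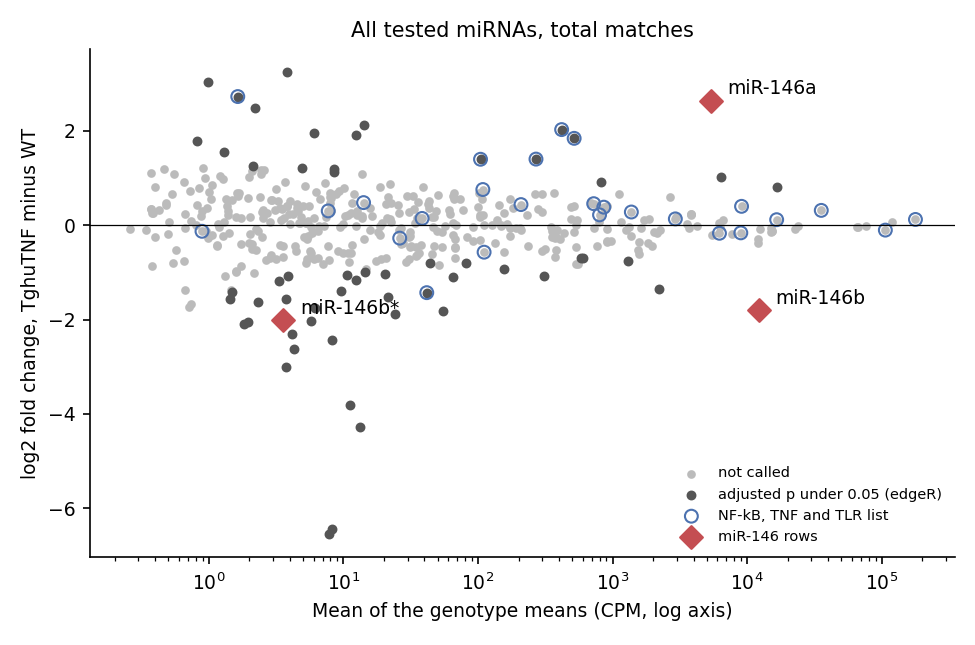
Log2 fold change (TghuTNF minus WT) of the 442 tested miRNAs against the mean of the genotype means in CPM (log axis); dark points passed edgeR's test, blue rings mark the NF-kB, TNF and TLR list and red diamonds the miR-146 rows. Among abundant miRNAs miR-146a (2.64) and miR-146b (-1.79) lie farthest from 0 on either side, and most ringed miRNAs lie near 0.

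The miRNAs whose pattern over the 4 libraries was closest to that of each member were found among 133 others with a mean of at least 100 CPM. The measure was the root mean square difference of log2 CPM after subtracting each miRNA's own mean, and with 4 libraries it mostly reads the genotype difference. Closest to miR-146a were miR-221 (0.37), miR-222 (0.45) and miR-155 (0.63), against a median of 1.35 over the 133. Closest to miR-146b were miR-378 (0.26), miR-214 (0.43) and miR-676 (0.49), against a median of 0.90, and the same 3 were closest to miR-146b* (0.34, 0.56 and 0.54). miR-378, encoded in an intron of Ppargc1b, stood at 3543 and 2764 CPM in WT and at 1255 and 1212 CPM in TghuTNF (log2 -1.35 ± 0.18, SE; edgeR adjusted p = 0.00077). miR-676 fell by 1.07 ± 0.19 (SE) on the log2 scale (edgeR adjusted p = 0.0029). On reads with 1 or 2 mismatches alone miR-378 (-1.07, edgeR adjusted p = 0.057) and miR-676 (-0.76, 0.18) did not pass. miR-214 passed (-0.93 ± 0.26, edgeR adjusted p = 0.037) but kept its call in 7 of 13 alternatives, and without WT replicate 1 it did not pass (-0.53, 0.45).

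**Figure D5:**
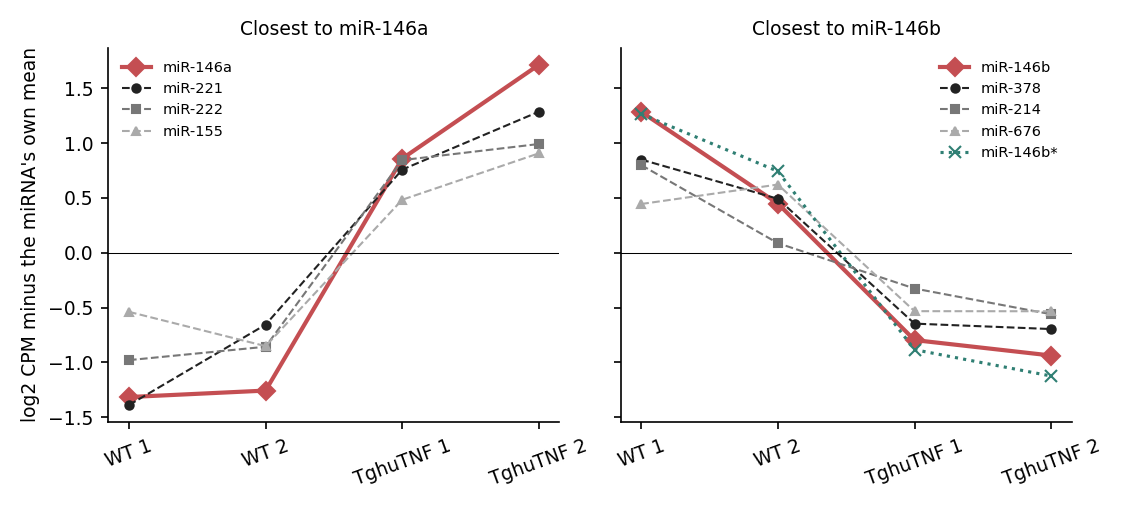
Log2 CPM minus each miRNA's own mean over the 4 libraries, for miR-146a with its 3 closest miRNAs (left) and for miR-146b and miR-146b* with the 3 closest to miR-146b (right); lines join libraries only to guide the eye. miR-146a lies below its mean in both WT libraries and above it in both TghuTNF libraries, and miR-146b and miR-146b* the other way.

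Markers of other cell types were measured beside these changes, because a culture can hold more than one cell type. In such samples fewer cells of a type and less RNA per cell cannot be told apart. The 8 blood cell miRNAs summed to 103 and 78.4 CPM in WT and to 119 and 121 CPM in TghuTNF. Of the 5 tested, 1 rose (miR-223) and 0 fell. miR-342-3p was the most abundant (59.2 and 48.3 against 71.2 and 87.2 CPM; edgeR adjusted p = 0.14, and 0.037 without TghuTNF replicate 1), and miR-144 of red cells was at 0 in both TghuTNF libraries.

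The 2 endothelial miRNAs (both tested, 1 lower) summed to 127 and 108 CPM in WT and to 68.8 and 66.7 CPM in TghuTNF, with miR-126-3p lower (log2 -0.79 ± 0.22, SE; edgeR adjusted p = 0.035). That call held in 8 of 12 alternatives and ended when either WT library was left out (edgeR adjusted p = 0.30 with replicate 1 out and 0.10 with replicate 2 out). The 7 epithelial miRNAs summed to 67.7 and 70.9 against 36.8 and 30.7 CPM, most of it miR-203, which was the 1 of 4 tested that fell, while miR-200a was at 0 in WT replicate 1 and miR-429 in WT replicate 2. The 6 muscle miRNAs summed to 2426 and 3008 against 2055 and 1784 CPM, most abundantly miR-206 (-0.53 ± 0.18, edgeR adjusted p = 0.077; it passed in 3 of 13 alternatives, lowest adjusted p 0.013), none of the 5 tested passed, and miR-208a was not listed. The 6 neural miRNAs summed to 325 and 279 against 460 and 441 CPM, led by miR-129-5p (0.67 ± 0.20, edgeR adjusted p = 0.051), which passed in 5 of 13 alternatives (lowest adjusted p 0.0089). Of the 5 tested 1 rose (miR-138, 1.12 ± 0.29, edgeR adjusted p = 0.032), and miR-124 was at 0 in both WT libraries. The endothelial, epithelial and muscle sums were lower in both TghuTNF libraries, as was miR-146b, and the blood cell and neural sums were higher, as was miR-146a. Some tested markers went the other way from their sum, and none of these passed. On the log2 scale they were epithelial miR-200b (0.44), miR-200c (0.30) and miR-141 (0.46), muscle miR-499 (1.20), blood cell miR-486 (-0.69) and neural miR-9 (-0.28). The other tested markers of these types went with their sum. The part of other cell types in the changes of the pair was not tested.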

How the data were processed

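Small RNA of 4 cultures (2 WT, 2 TghuTNF) was sequenced. The deposited values are raw counts of reads per miRNA, not normalised, with 1 table per library. Per the file headers, the authors used mimap version 3d to match 37-base reads to 707 mature mouse miRNAs, allowing 2 mismatches (hash length 9), and each count is split into 0-, 1- and 2-mismatch parts. The sources used here name no miRBase release, adaptor trimming or rule for reads that match several miRNAs, so near-identical miRNAs can share reads in total matches, and perfect matches were also tested alone.

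The members and lists were chosen with earlier results of these data known. Counts were filtered (filterByExpr), TMM-scaled and compared between genotypes, with no other term and all 4 libraries, by edgeR 4.0.16 (quasi-likelihood, two-sided) in R 4.3.3. P-values were adjusted by Benjamini-Hochberg over all features, with a threshold of 0.05. Log2 ratios (pseudocount 0.5) were compared with limma 3.58.1. Sequences came from RefSeq (GRCm38.p6), and 259 of 590 names could be given one. The deposited names often lack an arm mark, and such a name was given the arm whose seed another listed name shares. The first form of that rule could give both strands of a hairpin the same arm and was corrected after its results had been seen, and its values are given with the alternatives. Names with no sequence formed pools of their own and were left out of the seed families.

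The miRNAs named are the members, the 3 closest patterns to each, the list members that passed and the 4 most abundant of the rest, neighbours in rank, the most abundant marker of each cell type, and the 3 largest changes of family and arm ratios. miR-22, miR-138, miR-196a as a marker, the markers at 0 and the markers that went against their sum were named after their values were seen. Scripts were tested on simulated data. Alternatives were DESeq2 1.42.0, limma-voom, other scalings, filters, a pseudocount of 5, other mismatch classes, a replicate block and leaving out each library.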

Additional observations from a re-analysis of the deposited data

How the results depend on the processing

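Under every alternative run, miR-146a stayed higher and miR-146b and miR-146b* lower, and each call held except on reads with 1 or 2 mismatches alone, where miR-146b (-1.30, edgeR adjusted p = 0.13) and miR-146b* (-1.18, 0.29) did not pass. miR-146b* has no value with a mean CPM of at least 100, which removes it. Leaving out each library, which leaves 1 library in a genotype that is assumed to vary like the others, gave log2 fold changes on total matches of 2.12 to 2.93 (miR-146a), -2.16 to -1.31 (miR-146b) and -2.26 to -1.74 (miR-146b*). The seed pool ranged from -0.94 to -0.13 and the change of the log2 ratio of the pair from 3.81 to 4.90. The change of the log2 odds of a perfect match ranged from -0.16 to 0.072 for miR-146a and from -1.37 to 0.066 for miR-146b. This change was 0.0083 for miR-146a and 0.066 for miR-146b without TghuTNF replicate 2, and 0.072 for miR-146a without WT replicate 1. miR-99b, which did not pass, stood at -0.023 on reads with 1 or 2 mismatches and at -0.058 to 0.25 without one library, below 0 without TghuTNF replicate 1 and without WT replicate 2 (-0.014). The causes were not tested.

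The seed pool passed with a mean CPM of at least 100 (-0.58, edgeR adjusted p = 0.026) and upper quartile factors (-0.77, 0.020), and the ratio on total matches (4.31, limma adjusted p = 0.033). With the first form of the arm rule, added after its results had been seen, the pool was at -0.61 (edgeR adjusted p = 0.096 over 324 pools) and the ratio at 4.35 (limma adjusted p = 0.065 over 34 families), so neither passed under either form.

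Counts of all calls moved more. Higher and lower calls on total matches (21 and 38) were 7 and 9 on reads with 1 or 2 mismatches, 8 and 6 above the minimum of 100 CPM, 39 higher without a filter, and 17 to 61 and 29 to 92 without one library. On perfect matches (19 and 31) that CPM minimum left 12 and 6, and they were 31 higher without a filter, 13 and 48 with upper quartile factors, and 6 to 41 and 15 to 52 without one library. Upper quartile factors moved the median of all miRNAs by -0.11 on total and by -0.27 on perfect matches. For pools (15 and 23), 8 were lower with a mean CPM of at least 100, 39 with upper quartile factors (15 higher), and 9 to 39 and 15 to 47 without one library. The NF-kB list had 1 to 2 lower and 4 to 7 higher without one library.

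With the replicate number as a block, miR-146a was at 2.58, miR-146b at -1.74 and miR-146b* at -2.01 on total matches, all still called. The pool (-0.54, edgeR adjusted p = 0.0047) and the ratio (4.35, limma adjusted p = 0.019) then passed, with 34 higher calls on total matches and 26 higher and 35 lower pools. Deviations of same-numbered libraries correlated at -0.088 over 442 miRNAs, but with only 2 pairs this value cannot decide whether the cultures are paired. The labels give them shared numbers and no known pairing.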

Other observations

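The spread between cultures of the pair was itself unequal. Between the WT cultures miR-146b differed by 0.84 on the log2 scale, ranking 3 in size among the 135 miRNAs with a mean of at least 100 CPM (median 0.17), while miR-146a differed by 0.059. Between the TghuTNF cultures miR-146a differed by 0.86 and ranked 7 (median 0.20), while miR-146b differed by 0.14. Each of the pair was therefore most variable in the genotype in which it was high.

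The arm ratios of 106 hairpins were taken on total matches. Their largest changes were those of miR-466f-3p to miR-466f-5p (1.06 ± 0.39, SE), miR-196a* to miR-196a (0.91 ± 0.33) and miR-145* to miR-145 (-0.91 ± 0.48). None of these passed (limma adjusted p = 0.67 for each). The change of miR-146b ranked 48. On perfect matches, in the test of seed pools, miR-196a* and miR-196a rose by similar amounts (log2 1.11 and 1.07). The log2 fold changes of miR-145* and miR-145 were also close there (0.44 and 0.56). Perfect matches of miR-466f-3p were scarce, with means of 0.591 CPM in WT and 0.547 CPM in TghuTNF. These values do not show the strand shifts seen on total matches for miR-196a and miR-145.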
